A study of Mus musculus with 8 samples.

Results

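Expression of the 9 enzyme genes Sqle, Lss, Cyp51, Tm7sf2, Msmo1, Nsdhl, Hsd17b7, Ebp and Sc5d, which take squalene towards cholesterol, was followed step by step in the liver of mice lacking Abhd15. The genes were chosen by name, and each was read from a transcript cluster (the set of probes the array summarises for a gene) annotated with that symbol alone. All 9 were found, each with 1 such cluster, among 22180 genes that the platform's annotation names in this way. Livers came from 3 wild-type (WT) and 5 Abhd15 knockout (KO) males of C57BL/6J background, all on normal chow, fasted overnight and refed with chow for 1 hour before harvest, at 14 weeks of age by the design text. The labels give neither how the KO allele was made nor whether the WT mice were littermates, and animals are not listed there. The p-values thus rest on sample-to-sample spread, which may be technical. Each sample was hybridised to 1 Affymetrix Mouse Gene 2.0 ST array, and values are log2 expression.

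Squalene is the last hydrocarbon of the mevalonate pathway and is turned into cholesterol in the endoplasmic reticulum by oxidation, ring closure, removal of methyl groups and shifts of double bonds. Most genes of the chain are known targets of SREBP-2, a membrane-bound transcription factor released when the sterol content of the endoplasmic reticulum falls. In liver the chain serves lipoproteins and bile acid synthesis, and its transcripts are known to respond to feeding, insulin and dietary sterol. SREBP proteins bind sterol regulatory elements, usually beside sites for the partner factor NF-Y, which recognises CCAAT, and for Sp1, which recognises GC boxes.

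The upstream sequences of 5 members are shown because their transcripts behaved differently in what follows: Cyp51 and Msmo1 were among the members lowest in the KO mean relative to WT, Hsd17b7 was low in 2 KO samples, and Tm7sf2 and Sc5d differed little. Each run gives the 250 bases before the start site, 5′ to 3′ in the direction of the gene, from RefSeq's GRCm38.p6 promoter table, which held 8 of the 9 members and not Sqle. For Hsd17b7 the annotated gene reaches 37 bases upstream of that site, so only the outer 213 bases are printed. Capitals mark CCAAT or its reverse ATTGG, and TCACNNNA, a loose form of the sterol regulatory element, on either strand.
Cyp51: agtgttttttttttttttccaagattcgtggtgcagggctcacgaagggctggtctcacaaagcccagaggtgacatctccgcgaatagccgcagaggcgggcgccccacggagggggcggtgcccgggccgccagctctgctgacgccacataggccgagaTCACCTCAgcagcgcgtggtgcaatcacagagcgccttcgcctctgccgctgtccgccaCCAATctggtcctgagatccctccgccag
Msmo1: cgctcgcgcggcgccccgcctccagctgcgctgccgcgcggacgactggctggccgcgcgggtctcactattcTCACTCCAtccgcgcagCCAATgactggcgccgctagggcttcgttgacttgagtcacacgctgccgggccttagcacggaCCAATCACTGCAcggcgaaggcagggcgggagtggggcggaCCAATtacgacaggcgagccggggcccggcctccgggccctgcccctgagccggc
Hsd17b7: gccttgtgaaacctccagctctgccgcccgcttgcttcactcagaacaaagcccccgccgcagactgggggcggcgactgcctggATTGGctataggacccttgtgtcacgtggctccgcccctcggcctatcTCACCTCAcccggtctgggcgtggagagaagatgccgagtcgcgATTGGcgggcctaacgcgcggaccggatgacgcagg
Tm7sf2: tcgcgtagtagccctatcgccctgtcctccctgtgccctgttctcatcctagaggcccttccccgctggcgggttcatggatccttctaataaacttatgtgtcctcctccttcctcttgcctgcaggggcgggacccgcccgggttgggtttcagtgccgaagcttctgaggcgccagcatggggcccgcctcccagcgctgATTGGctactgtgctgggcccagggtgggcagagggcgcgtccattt
Sc5d: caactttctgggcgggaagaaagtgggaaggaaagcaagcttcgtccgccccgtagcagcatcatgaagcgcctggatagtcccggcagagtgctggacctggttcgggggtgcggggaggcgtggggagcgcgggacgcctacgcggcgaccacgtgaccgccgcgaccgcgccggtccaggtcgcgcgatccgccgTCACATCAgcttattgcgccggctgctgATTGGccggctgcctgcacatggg
The Cyp51 run lies at chr5:4104698-4104947 on the minus strand, and the Msmo1 run at chr8:64733579-64733828 on the minus strand. The Hsd17b7 run lies at chr1:169969243-169969455 on the minus strand, the Tm7sf2 run at chr19:6067851-6068100 on the minus strand and the Sc5d run at chr9:42264301-42264550 on the minus strand.

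All 8 member windows held CCAAT or ATTGG, and 4 of them held it more than once, against 33.85% and 10.09% of all 32851 promoter windows of this length. Among the 7571 windows of genes with a mean log2 value of at least 5 on these arrays the shares were 34.66% and 12.63%. The GC box GGGCGG, searched on both strands, was also present in all 8 member windows, against 32.74% of all windows and 58.71% of those of the brighter genes. TCACNNNA was present in 5 of 8 member windows, in Cyp51, Msmo1, Nsdhl, Hsd17b7 and Sc5d, against 33.7% of all windows and 28.7% of the brighter genes. In Cyp51 and Hsd17b7 the matching letters were the same, TCACCTCA, starting at -88 and -117 relative to the start site of the promoter table. In Msmo1 the match TCACTGCA at -92 overlaps a CCAAT. The stricter form TCACNCCAC, which is contained in TCACNNNA, was in 0 of 8 member windows and in 1.05% of all windows. The E-box CACGTG was in the windows of Hsd17b7 and Sc5d, against 6.02% of all windows. CCAAT and GC boxes were thus shared by members with larger and with smaller differences in group means, none of which passed adjustment. These matches are descriptions of letters and not binding sites.

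The arrays had medians between 2.99 and 3.05, and all 9 members read above them. Abhd15 itself, read from the cluster with the higher mean of its 2, averaged 5.64 ± 0.176 (SD, n = 3) on the WT arrays and 5.12 ± 0.0775 (SD, n = 5) on the KO arrays. The groups did not overlap, and 2.44% of all clusters were separated in this direction. The fall was 1.43-fold, with an adjusted limma p of 0.795. This checks the labels by direction only, since the labels do not place its probes relative to the deletion. Values of the other Abhd15 cluster are not given, so the check rests on this cluster alone. The 7 hepatocyte markers examined, such as Alb, averaged 12.0 to 12.2 on every array, while 4 lists of markers of neutrophils, lymphocytes, exocrine pancreas and adipocytes averaged 3.76 or less. Kupffer cell markers (6 genes) averaged 5.67 to 6.23 in WT and 5.45 to 6.68 in KO, with 2 lower and 4 higher in the KO mean. Cholangiocyte markers (4 genes) averaged 3.93 to 4.14 in WT and 3.92 to 4.17 in KO, with 3 lower and 1 higher. Those of sinusoidal endothelium (5 genes) averaged 7.61 to 7.67 and 7.62 to 7.80, and those of stellate cells (6 genes) 6.18 to 6.27 and 6.01 to 6.41. No average of these lists separated the groups. Of the endothelial genes 3 were lower and 2 higher in the KO mean. Lyve1, named after its value was seen, was higher with no overlap (log2 difference, KO minus WT, 0.65). The share of all clusters separated upward was not counted. At an unadjusted limma p under 0.05, which Lyve1 passed, 2.75% of all clusters were higher. Of the stellate genes 3 were lower and 3 higher, and Lrat was lower with no overlap (-0.34), as 2.44% of all clusters were. KO arrays 1 and 2 stand apart from the other arrays: the 10 immediate early genes examined averaged 6.50 and 6.71 there, against 4.84 to 5.11 on the other KO arrays and 4.83 to 4.89 in WT. Their leave-out values are given beside the members whose difference moved by more than 1.5 times.

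Across the chain, 8 of 9 members were lower in the KO mean and 1, Tm7sf2, was higher, with a median log2 difference (KO minus WT) of -0.31. By point estimate, 6 members lay between -0.85 and -0.31 and 3 between -0.073 and 0.037. The 95% intervals of Lss (-0.68 to 0.0089), Nsdhl (-0.65 to 0.039) and Hsd17b7 (-0.82 to 0.19) cover the estimates of Ebp and Sc5d. The values therefore do not divide the chain into separate classes. Over all 23521 clusters with 1 symbol the median was -0.0018 and 50.4% were lower. Among the 7699 brighter clusters, with means of 5 or more, the median was -0.040 and 59.9% were lower. A difference of -0.3 or below, a size chosen after the values were seen, was found in 6 of 9 members, in 8.36% of all clusters and in 7.34% of the brighter ones. No member passed an adjusted p of 0.05 (0 of 9, limma with Benjamini-Hochberg adjustment over all 23521 clusters, member values 0.795 to 0.979), and 0% of all clusters did. At an unadjusted limma p under 0.05, 3 members were lower, Sqle, Cyp51 and Msmo1, and 0 were higher, where 3.32% of all clusters were lower and 2.75% higher in this way, and 3.91% of the brighter clusters were lower. In whole liver, fewer cells of a type and less RNA per cell cannot be told apart.

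**Figure D1:**
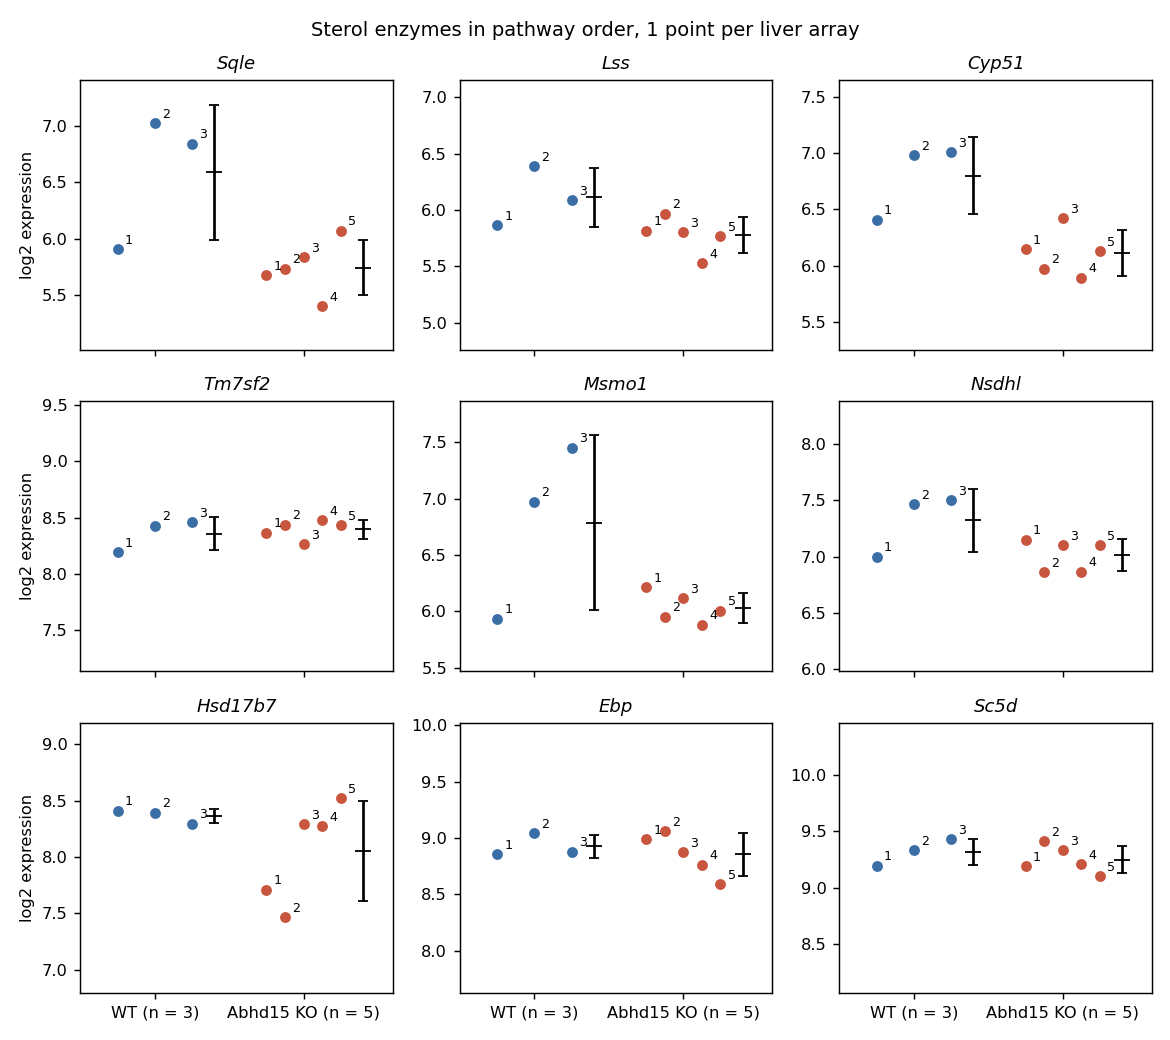
Log2 expression of each enzyme gene (vertical axis, the same span of 2.4 in each panel) in 3 WT and 5 KO liver samples, 1 numbered point per array in pathway order, with the mean and SD beside each group. Sqle, Cyp51 and Msmo1 read lower in KO than in WT arrays 2 and 3, WT array 1 lies near the KO arrays in these genes, and Hsd17b7 is low in KO arrays 1 and 2.

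Sqle encodes squalene epoxidase, which adds oxygen to squalene and is regarded as a control point of the late pathway. It read 5.91, 7.02 and 6.84 on WT arrays 1 to 3 and 5.67, 5.73, 5.84, 5.40 and 6.07 on KO arrays 1 to 5. WT arrays 2 and 3 lay above all KO arrays, and WT array 1 lay within the KO range, below KO array 5 alone. The log2 difference was -0.85 (SE 0.247, 95% interval -1.40 to -0.30), or 1.80-fold lower in KO, with a two-sided exact permutation p of 0.0357 and an adjusted limma p of 0.795. Only 0.204% of all clusters had a difference as low or lower.

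Lss encodes lanosterol synthase, which folds oxidised squalene into the ring system. It read 5.86, 6.39 and 6.09 in WT and 5.82, 5.97, 5.80, 5.53 and 5.77 in KO, so KO array 2 lay above WT array 1 and the other KO arrays below it. The log2 difference of -0.34 (SE 0.156, 95% interval -0.68 to 0.0089) had an exact permutation p of 0.0357 and an adjusted limma p of 0.836. It was -0.20 without WT array 2, which held the highest value.

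Cyp51 encodes the cytochrome P450 that removes the methyl group from the ring junction of lanosterol. Its WT arrays read 6.41, 6.98 and 7.01 and its KO arrays 6.15, 5.97, 6.42, 5.89 and 6.13. KO array 3 and WT array 1 were nearly equal, and all other KO arrays lay below all WT arrays. The log2 difference was -0.69 (SE 0.179, 95% interval -1.08 to -0.29), or 1.61-fold lower, with an exact permutation p of 0.0357 and the smallest limma p of the 9 members, 0.00302 unadjusted and 0.795 adjusted.

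Tm7sf2 encodes a sterol reductase that acts on the product of Cyp51, a step that the lamin B receptor Lbr can also carry out. It read 8.19, 8.43 and 8.46 in WT and 8.37, 8.44, 8.27, 8.48 and 8.44 in KO, so the KO arrays lay inside or just above the WT range. The log2 difference was 0.037 (SE 0.126, 95% interval -0.24 to 0.32, exact permutation p = 0.679, adjusted limma p = 0.979), and it was -0.047 without WT array 1. The point estimates of Cyp51 and Msmo1, -0.69 and -0.75, lie outside this interval. The 95% interval of Msmo1, -1.37 to -0.14, overlaps it, and that of Cyp51, -1.08 to -0.29, does not. Lbr differed by 0.013 (SE 0.162, 95% interval -0.35 to 0.37), and by -0.051 to 0.12 with 1 array left out.

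Msmo1, Nsdhl and Hsd17b7 act in turn to remove the methyl groups at another ring position, as an oxidase, a decarboxylating dehydrogenase and a ketone reductase. Msmo1 read 5.93, 6.97 and 7.45 in WT and 6.22, 5.95, 6.12, 5.88 and 6.01 in KO. It had the widest WT range of all members, 1.52, and WT array 1 lay below 4 of the 5 KO arrays. The log2 difference of -0.75 (SE 0.277, 95% interval -1.37 to -0.14) had an exact permutation p of 0.0893 and an adjusted limma p of 0.795. Leaving out WT array 1 gave -1.18 and leaving out WT array 3 gave -0.42, so its size rests on which WT samples are counted.

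Nsdhl read 6.999, 7.468 and 7.501 in WT and 7.15, 6.86, 7.10, 6.87 and 7.10 in KO, with WT array 1 again inside the KO range. Its log2 difference was -0.31 (SE 0.156, 95% interval -0.65 to 0.039, exact permutation p = 0.0893, adjusted limma p = 0.841), and -0.47 without WT array 1. Nsdhl lay closest of all members to the average member profile, of which it is itself a part. Its values, each taken from the gene's own mean, differed from that profile by a root mean square of 0.0731, against 0.130 to 0.339 for the other 8 members. The measure also counts the size of a difference, so members with larger or smaller differences than the average lie further away.

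Hsd17b7 had a different pattern. It read 8.41, 8.39 and 8.30 on the WT arrays, a range of 0.116, and 7.71, 7.465, 8.29, 8.27 and 8.52 on the KO arrays. KO arrays 1 and 2 lay well below all others, and KO arrays 3 to 5 lay around the WT values. The log2 difference of -0.31 (SE 0.23, exact permutation p = 0.268, adjusted limma p = 0.884) became -0.0043 without KO arrays 1 and 2, with an exact permutation p of 0.9. The immediate early gene average was raised on the same 2 arrays, and its part in the Hsd17b7 values was not tested.

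Ebp and Sc5d carry out late steps, the isomerisation of a ring double bond and the desaturation that gives the immediate precursor of cholesterol. Ebp read 8.86, 9.04 and 8.88 in WT and 8.99, 9.06, 8.87, 8.76 and 8.59 in KO, so the KO arrays reached beyond the WT range on both sides. Sc5d read 9.20, 9.33 and 9.43 in WT and 9.19, 9.41, 9.33, 9.21 and 9.10 in KO, with the groups intermixed. Their log2 differences were -0.073 (SE 0.143, 95% interval -0.39 to 0.24) and -0.069 (SE 0.129, 95% interval -0.35 to 0.22), with adjusted limma p-values of 0.960 and 0.959. Ebp was -0.19 and Sc5d -0.10 without KO arrays 1 and 2, Ebp was -0.0058 without KO array 5, and Sc5d was -0.015 without WT array 3. Dhcr7, the reductase of the last step and not among the 9 members, read 7.01, 7.16 and 7.11 in WT and 6.80, 6.48, 6.79, 6.89 and 7.03 in KO, where only KO array 5 reached the WT range. Its log2 difference was -0.30 (SE 0.145, 95% interval -0.62 to 0.024, exact permutation p = 0.0893, adjusted limma p = 0.838), and -0.19 without KO arrays 1 and 2.

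**Figure D2:**
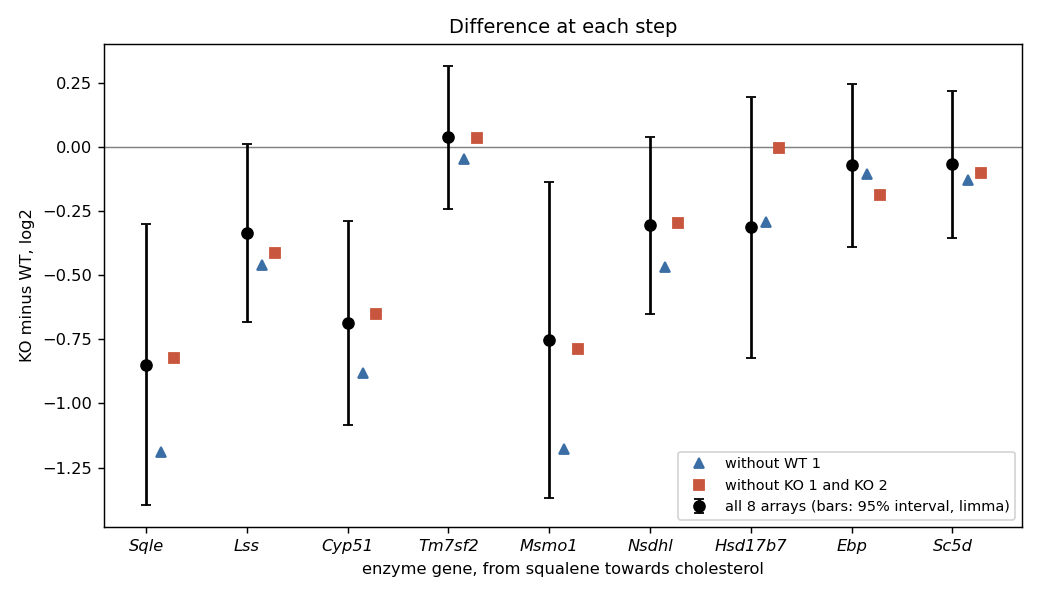
Log2 difference, KO minus WT (vertical axis), for each enzyme gene in pathway order, with all 8 arrays (black, 95% interval from limma), without WT array 1 (triangles) and without KO arrays 1 and 2 (squares). Sqle, Cyp51 and Msmo1 are furthest below 0, Tm7sf2, Ebp and Sc5d lie near 0, and the Hsd17b7 value moves from -0.31 to -0.0043 when KO arrays 1 and 2 are left out.

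Whether the difference changed in size from step to step was tested with the log2 ratio of neighbouring genes within each array, for the 8 neighbouring pairs. From Cyp51 to Tm7sf2 the ratio was 1.56 in WT and 2.28 in KO on average, a difference of 0.72 (SE 0.187), with no overlap between the groups and an exact permutation p of 0.0179, the smallest that 56 splits can give. From Tm7sf2 to Msmo1 it differed by -0.79 (SE 0.294, exact permutation p = 0.0536), and it was -0.51 without WT array 3. From Sqle to Lss it differed by 0.51 (SE 0.204, exact permutation p = 0.0536). The remaining 5 pairs differed by -0.35 to 0.45 with exact permutation p-values of 0.0893 to 0.982, and the pair of Msmo1 and Nsdhl moved from 0.45 to 0.20 without WT array 3 and to 0.71 without WT array 1. After Benjamini-Hochberg adjustment over the 8 pairs the smallest exact p was 0.143, so 0 of 8 passed. A single pair at the smallest possible exact p could not pass this adjustment on its own. A ratio within an array shows unequal change and not which of the genes changed.

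In 8 of 9 members WT array 1 was the lowest of the WT arrays, the exception being Hsd17b7, where it was the highest. WT array 1 was lowest in 34.2% of all clusters and in 33.3% of the brighter ones. The WT range reached 1 log2 unit in Sqle and Msmo1, which 1.71% of those clusters did. With all arrays, 0 of 9 members had KO arrays all below the WT arrays, where 2.44% of all clusters and 4.22% of the brighter ones did. Without WT array 1, the groups no longer overlapped in 5 members, Sqle, Lss, Cyp51, Msmo1 and Nsdhl, where 5.61% of all clusters and 8.18% of the brighter ones were separated in this direction. The log2 differences of these 5 were then -1.19, -0.46, -0.88, -1.18 and -0.47. WT array 1 was the lowest WT array in each of them, so leaving it out favours separation. The shares above cover all clusters, whichever WT array was lowest. Each of the 5 then had an exact permutation p of 0.0476, the smallest that 2 against 5 arrays allow, which adds no support to the separation. Without KO arrays 1 and 2 the differences of the same 5 were -0.82, -0.41, -0.65, -0.79 and -0.30, so these members were about as low in the other KO samples. The groups then did not overlap in 1 member, Lss, where 6.17% of all clusters were separated in this direction.

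**Figure D3:**
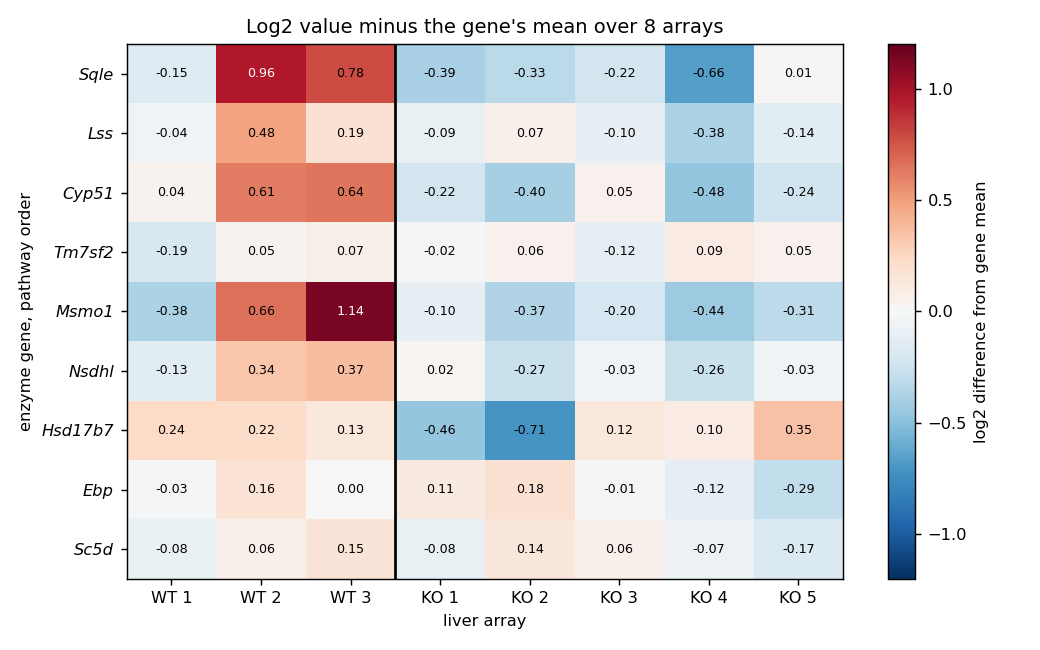
Log2 value of each enzyme gene (rows, pathway order) on each liver array (columns), minus the gene's mean over 8 arrays, with red above and blue below that mean. WT arrays 2 and 3 stand out as high in Sqle, Cyp51 and Msmo1, while WT array 1 is at or below the gene mean, or within 0.05 above it, in every member except Hsd17b7.

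**Figure D4:**
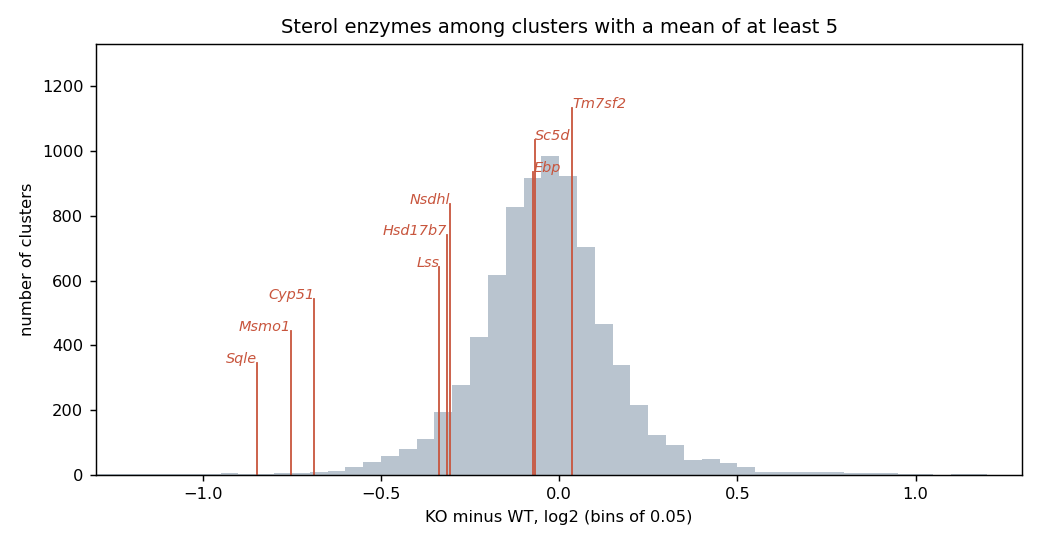
Number of clusters (vertical axis) by log2 difference, KO minus WT (horizontal axis, bins of 0.05), for the 7699 clusters averaging 5 or more, with the enzyme genes marked by red lines whose heights carry no value. Sqle, Msmo1 and Cyp51 lie in the sparse lower tail, at -0.85, -0.75 and -0.69, and Tm7sf2, Ebp and Sc5d lie in the centre.

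The genes around the chain were read from short lists of related genes. Of 7 measured genes of the mevalonate steps up to squalene, 6 were lower and 1 higher, with a median log2 difference of -0.49, and 4 were lower and 1 higher at an unadjusted limma p under 0.05, which 3.32% of all clusters passed as lower and 2.75% as higher. Of the 7 genes 2, both among these 4, averaged below 5. The list averaged 6.40 on WT array 1, inside the KO range of 6.09 to 6.485, and 6.77 and 6.88 on WT arrays 2 and 3. Hmgcs1, the cytosolic HMG-CoA synthase, had the smallest p there, with a log2 difference of -0.86 (SE 0.165) and no overlap between the groups. The higher gene was Ggps1, which makes geranylgeranyl diphosphate and so leads away from squalene, with a log2 difference of 0.34 (SE 0.147, named after its value was seen).

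Several sterol enzymes receive electrons through cytochrome b5 or its partners. All 4 measured genes of this kind had a lower KO mean, as did 59.9% of the clusters with means of 5 or more. Their median was -0.088, and Cyb5r3 was practically unchanged at -0.0004. Cyb5b, a cytochrome b5 of the outer mitochondrial membrane, was the furthest from 0. It read 8.27, 8.71 and 8.60 in WT and 8.12, 8.20, 8.24, 8.16 and 8.19 in KO, with no overlap. The log2 difference was -0.34 (SE 0.134, exact permutation p = 0.0179, adjusted limma p = 0.795). Cyb5b was also the gene whose centred values lay closest to the average profile of the 9 members, with a root mean square difference of 0.0615 over the 8 arrays among 7469 genes with a mean of at least 5. It was followed by Tm2d3 (0.0659), Rgn (0.0685), Perp (0.0801) and Nosip (0.0825), while the average profile itself departed from 0 by 0.232. These 5 genes share with the average profile its high WT arrays 2 and 3. In Tm7sf2, Hsd17b7, Ebp and Sc5d, WT arrays 2 and 3 did not both lie above all KO arrays. Being picked for likeness, the 5 genes carry no test.

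Among 11 genes of SREBP control and sterol uptake, 7 were lower and 4 higher, with a median of -0.076. Stard4, a sterol carrier, had the smallest p, with a log2 difference of -0.88 (SE 0.246), and read 5.66 on WT array 1 against 6.57 and 6.46 on WT arrays 2 and 3, the same order as Sqle. Scap, the escort protein of SREBP, was on the other side at 0.38 (SE 0.145, chosen after its value was seen). Of 9 genes of sterol efflux, LXR signalling and bile acid formation, 3 were lower and 6 higher, with a median of 0.028, and Cyp7a1, which opens the classical route to bile acids, had the smallest p, with a log2 difference of -0.76 (SE 0.183). Its WT arrays read 10.1, 10.1 and 10.7 and its KO arrays 9.27 to 9.77, so WT array 1 did not lie with the KO arrays there. Of 7 fatty acid synthesis genes, 2 were lower and 5 higher, with a median of 0.029, and Thrsp, a lipogenic regulator, had the smallest p, at 0.53 (SE 0.388), and at 0.21 without KO array 5. In these lists 0 genes passed an adjusted limma p of 0.05, as in 0% of all clusters. At an unadjusted limma p under 0.05 there were 1 lower gene among the electron donors, 1 lower and 1 higher in SREBP control and uptake, 1 lower in efflux and bile acids, and 0 in fatty acid synthesis, against 3.32% of all clusters lower and 2.75% higher. The 10 immediate early genes were all higher in the KO mean, with a median of 0.75, and 2 of them were higher at an unadjusted limma p under 0.05, against 2.75% of all clusters. Without KO arrays 1 and 2, 7 of the 10 were higher, with a median of 0.091 and 0 at that p. The smallest p belonged to Atf3, which encodes a transcription factor induced by stress, at 0.85 (SE 0.32), and 0.44 without these arrays.

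**Figure D5:**
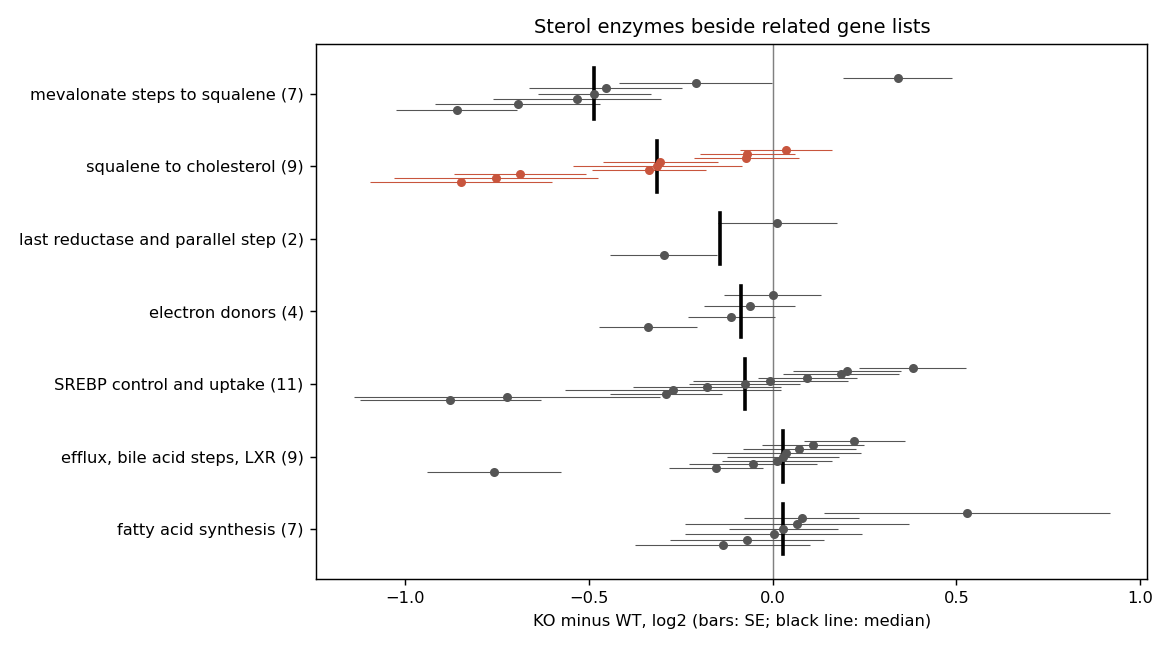
Log2 difference, KO minus WT (horizontal axis, bars are limma's SE), for each measured gene of 7 lists, with the list median as a black line and the number of genes in brackets. The mevalonate genes and the enzymes from squalene to cholesterol (red) have medians of -0.49 and -0.31, and the lists of efflux and of fatty acid synthesis have medians of 0.028 and 0.029.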

How the data were processed

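The authors deposited 1 table of log2 expression values with 41345 transcript clusters and 8 arrays, which was used as it stands. Per the submitters' processing notes, RMA and oligo were used, the series design text names Expression Console, and neither source gives versions, settings or the genome build. RMA usually quantile-normalizes arrays and compresses differences of dim clusters. The log2 scale was inferred from the values, 0.409 to 13.3. Without scan dates or slides no batch could be tested, and precision is limited by the number of arrays.

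Clusters with exactly 1 symbol in the platform annotation (23521) were tested, and per gene the cluster with the highest mean was kept. KO minus WT was fitted with limma 3.58.1 (R 4.3.3; lmFit, eBayes, no covariates, two-sided). Benjamini-Hochberg adjustment covered all 23521 of them, at a threshold of 0.05. Exact permutation tests used all 56 splits of the arrays and are unadjusted for single genes. The fit was tested on simulated data. Values are means ± SD.

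Genes named are the 9 members, Dhcr7 and Lbr, the gene with the smallest p in each other list of related genes, and the 5 nearest profiles. Ggps1, Scap, Cyb5r3, Lyve1 and Lrat were added after their values were seen. Members and lists were chosen with earlier results of these data known, so no p is given for a list. Listed genes without a cluster of their own were not analysed here. Promoter letters were searched in RefSeq windows (GRCm38.p6), leaving out the 50 bases past the start.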

Additional observations from a re-analysis of the deposited data

How the results depend on the processing

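Over 17 alternatives no member and no gene of the related lists passed an adjusted p of 0.05, and Sqle, Lss, Cyp51, Msmo1, Nsdhl, Hsd17b7 and Sc5d kept a negative log2 difference in each of them. The median difference of the 9 members lay between -0.46 and -0.23 over all of them, the ends being the values without WT replicate 1 and WT replicate 2. With all arrays 0 members were separated from WT, and with 1 array left out 0 to 5 were, the highest without WT replicate 1, and 1 without KO replicates 1 and 2. This count uses no fit, so settings of the fit give it no other value. The count of all clusters past the threshold was 0, and 1 when only clusters averaging 5 or more entered, 3 when every cluster was, 3 with trend and robust settings and 1 with the replicate block. None of these was a member, and the cause was not tested. With 1 array left out, Tm7sf2 ranged from -0.047 to 0.086, Lss from -0.46 to -0.20, Hsd17b7 from -0.43 to -0.17, Ebp from -0.12 to -0.0058 and Sc5d from -0.13 to -0.015. Of the ratios of neighbouring genes, Nsdhl to Hsd17b7 ranged from -0.13 to 0.18 and Ebp to Sc5d from -0.048 to 0.082, and Tm7sf2 to Msmo1 from -1.13 to -0.51, Msmo1 to Nsdhl from 0.20 (without WT replicate 3) to 0.71 (without WT replicate 1), Lss to Cyp51 from -0.42 to -0.23 and Hsd17b7 to Ebp from 0.043 (without KO replicate 2) to 0.43 (without KO replicate 5). Without KO replicates 1 and 2, Nsdhl to Hsd17b7 was 0.29 and Hsd17b7 to Ebp -0.18, against -0.0085 and 0.24 with all arrays. Quantile normalization turned Ebp to Sc5d from 0.0035 to -0.013. The cause of these turns was not tested. Leave-out values of the immediate early genes and of named genes other than the 9 members were added after seeing the data.

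The labels do not say what the replicate numbers stand for, and the main fit assumed no pairing. Deviations of same-numbered arrays from their group means correlated at -0.14, 0.073 and 0.060 over 7699 clusters. Differently numbered arrays are not given for comparison, so these values cannot settle whether the numbers pair samples. With the replicate block, which uses only the 3 shared numbers, Tm7sf2 was -0.0030, Ebp 0.047, Hsd17b7 -0.54 and Sc5d -0.0067, and the median of the members was -0.28.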

Other observations

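The genes of fatty acid synthesis, which respond to insulin and carbohydrate through SREBP-1c and ChREBP, were highest on different arrays from the sterol enzymes. The 7 measured genes averaged 8.89 and 9.25 on KO arrays 4 and 5, against 8.35 to 8.50 on KO arrays 1 to 3 and 8.50 to 8.68 in WT. The 9 sterol enzymes averaged 7.14 and 7.30 on KO arrays 4 and 5, and KO array 4 had the lowest average of all 8 arrays, while WT arrays 2 and 3 had the highest, at 7.78 and 7.77. On WT array 1 the sterol enzymes averaged 7.31, inside the KO range of 7.14 to 7.34, and the fatty acid synthesis genes 8.64, between the other WT arrays. These are averages over log2 values with no test.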
